A study of Mus musculus with 12 samples.

Results

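Tumors grown from injected cells without Lats1 and Lats2 (allograft tumors, 3 libraries) were compared with tumors that had arisen in the kidney in which Lats1 and Lats2 were deleted (primary tumors, 3 libraries). The 6 libraries were taken by their labels from a series of 12 bulk RNA-seq libraries of mouse, which also holds 3 lung metastases and 3 libraries of sorted proximal tubule cells. Both kinds of tumor were dissected from kidneys and both are labelled as lacking the same pair of genes. The comparison sets tumors that grew in place against tumors that grew from transplanted cells. The host, the time of growth and the labelled genotype differ between the groups as well. These cannot be told apart from the manner of growth.

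The primary tumors came from Slc34a1CreERT2;Lats1/2flox/flox mice of mixed background that received 3 injections of tamoxifen at 1 month of age and were dissected 4 months later. The Cre in these mice is driven from Slc34a1, whose product takes up phosphate in the proximal tubule. The allograft tumors carry the genotype Lats1-/-;Lats2-/- from a mixed source, in NOD/scid hosts aged 6 to 8 weeks, and were collected 6 weeks after the cells had been placed beneath the kidney capsule. The sources used here do not give how the injected cells were obtained or cultured, whether they were 1 clone, or whether the 3 libraries of a group came from separate mice. The p-values therefore measure the spread between these libraries, which may be technical. Cells of the host and of the graft are both mouse, and their transcripts cannot be told apart in these values.

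LATS1 and LATS2 are the kinases at the end of the Hippo pathway. They phosphorylate YAP and TAZ, which are then held out of the nucleus. Without the kinases, YAP and TAZ enter the nucleus, bind the TEAD factors and switch on genes of growth, matrix and the cytoskeleton. A NOD/scid mouse cannot join antigen receptor genes and so lacks mature T and B cells, and it has defects of innate immunity. An allograft in such a host grows with little adaptive immune response.

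Values are FPKM, fragments scaled by transcript length and by library, as deposited, and are given for libraries 1 to 3 of the primary tumors and then of the allograft tumors. A change is the difference of the mean log2(FPKM + 1), allograft minus primary, ± its standard error (n = 3 and 3). This scale understates the changes of genes with low values. A gene is said to have risen or fallen where limma's test, fitted to these 6 libraries, gave a Benjamini-Hochberg adjusted p under 0.05 over the 16313 genes tested. Of these genes, 2893 passed (17.7%), 1404 higher in allograft tumors (8.61%) and 1489 lower (9.13%). All 3 allograft values lay above all 3 primary values in 3457 genes (21.2%) and below them in 3673 (22.5%). The median change of all genes was -0.02.

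The primary tumors were the more uneven group. Correlations of log2 values between libraries ran from 0.797 to 0.928 among the primary tumors and from 0.919 to 0.949 among the allograft tumors. A list of 33 proximal tubule genes summed to 677, 74539 and 17817 FPKM across primary tumors 1 to 3 and to 438, 534 and 171 FPKM in allograft tumors 1 to 3. Primary tumors 2 and 3 thus hold far more tubule transcripts than primary tumor 1, which lies close to the allograft tumors on this sum. Fewer cells of a type and less RNA per cell cannot be told apart in such bulk tissue, here and in every result that follows. The calls rest on all 6 libraries together. With 1 library left out, 109 genes passed without allograft tumor 1, 650 without allograft tumor 2, 396 without allograft tumor 3, 818 without primary tumor 2 and 239 without primary tumor 3, but 4741 without primary tumor 1. With TPM rescaling 530 genes passed higher and 1224 lower, and with the 50 most abundant genes left out 683 and 1753. These scalings moved the median of all genes to -0.24 and -0.25.

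**Figure D1:**
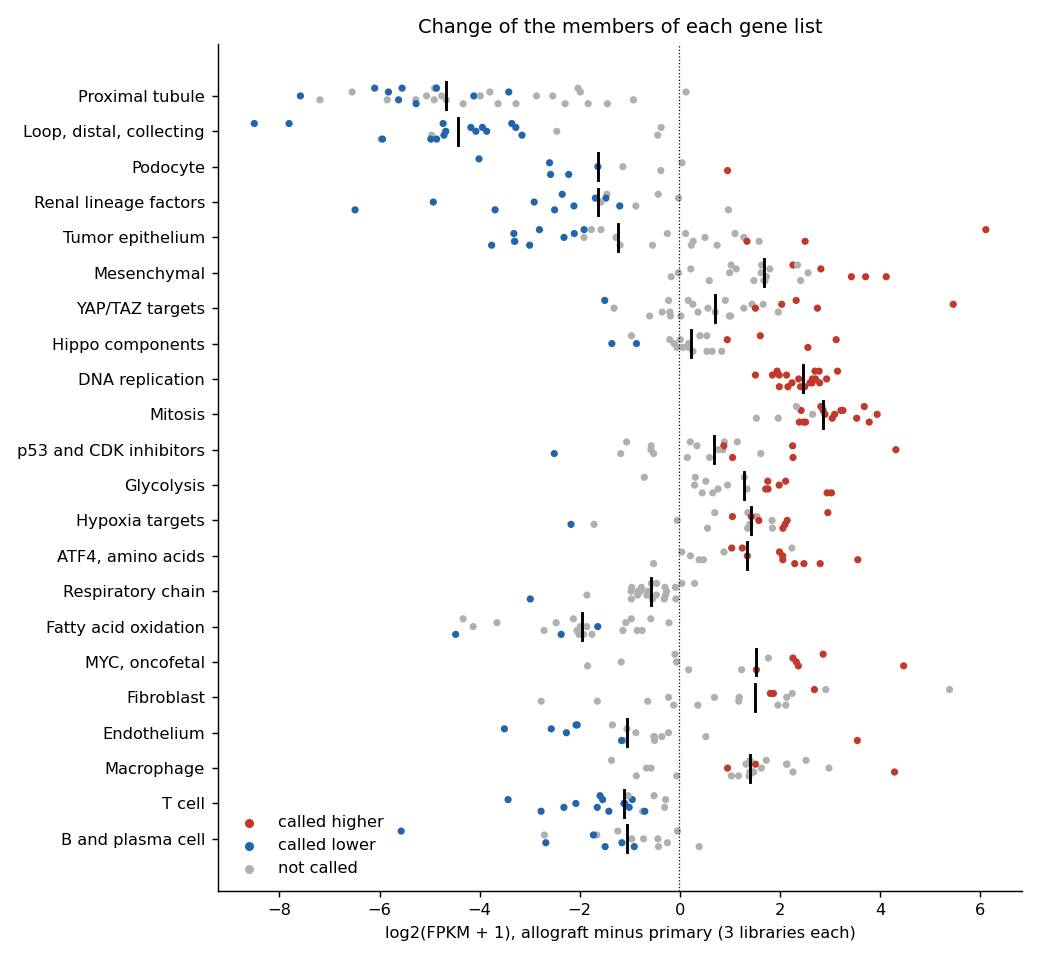
Log2 change (x axis, allograft minus primary) of each tested member of 22 gene lists (rows). Points are genes, red where called higher, blue where called lower and grey where not called, black bars are list medians and the dotted line is the median of all genes. Kidney lists lie to the left, replication and mitosis lists wholly to the right, and lymphocyte lists mostly to the left.

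For Lats1 the primary tumors gave 12.3, 13.0 and 14.7 FPKM and the allograft tumors 5.60, 7.82 and 7.29 (-0.87 ± 0.22, adjusted p = 0.0446). All allograft values lie under all primary values, but the call was lost after TPM rescaling, quantile normalization and removal of the 50 most abundant genes, and in each fit that left out a library other than primary tumor 1. Lats2 stood at 19.5, 13.0 and 21.4 FPKM in primary and 12.2, 16.6 and 17.1 in allograft tumors, with overlap, and was not called (-0.20 ± 0.27, adjusted p = 0.626). A gene-level value does not show whether an exon is missing, and the genotype cannot be read from these levels.

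The genes of kidney segments were lower in allograft tumors. Of 20 genes of the loop of Henle, distal tubule and collecting duct, 15 fell beside 9.13% of all genes, 0 rose, and all 3 allograft values lay under all 3 primary values in 18. The list's median change was -4.43. Umod, which encodes uromodulin of the thick ascending limb, stood at 209, 1140.3 and 2278 FPKM in primary tumors and at 1.32, 3.62 and 0.0661 in allograft tumors (-8.50 ± 0.96, adjusted p = 0.00952). It was the deepest fall among the genes named here, and the lowest primary value, in primary tumor 1, lay far above the highest allograft value. Slc12a1, the sodium, potassium and chloride cotransporter of the same segment, went from 44.9, 342 and 1089 to 0.192, 0.212 and 0.0530 FPKM (-7.81 ± 1.07, adjusted p = 0.0137). Slc12a3, the thiazide-sensitive cotransporter of the distal tubule, went from 26.8, 145 and 41.3 to 0.506, 1.99 and 0.551 FPKM (-4.86 ± 0.65, adjusted p = 0.0131).

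Members of this list that are genes of intercalated cells, which acidify the urine with a plasma membrane proton pump, are shown next and were picked after their values had been seen. The pump subunit gene Atp6v1b1 stood at 16.1, 41.4 and 44.1 FPKM in primary and 0.0633, 0.439 and 0.276 in allograft tumors (-4.68 ± 0.42, adjusted p = 0.00719). Atp6v1g3, another subunit of that pump, stood at 13.0, 29.3 and 26.6 FPKM against 0.130, 0.419 and 0.235 FPKM (-4.18 ± 0.34, adjusted p = 0.00598). Both were called in each of the 6 fits that left out 1 library. Foxi1, the transcription factor that specifies intercalated cells, stood at 5.61, 8.93 and 15.7 FPKM in primary tumors and at 0, 0.117 and 0.0733 in allograft tumors (-3.28 ± 0.35, adjusted p = 0.00923), and lost its call without allograft tumor 1 only. All 3 genes were measured in primary tumor 1 as well. With primary tumors 2 and 3 left out, the median of the 20 genes was -2.54. That setting, here and for the lists that follow, sets a lone primary library against 3 allograft tumors, whose spread it is assumed to share, so its medians are given as values and its calls are not used. Loop and duct genes called lower numbered 2, 9 and 5 without allograft tumor 1, 2 or 3 and 18, 10 and 9 without primary tumor 1, 2 or 3.

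The proximal tubule list gave a like median but fewer calls. Of 33 genes 9 fell, 0 rose and 24 were lower in every allograft tumor than in every primary tumor (22.5% of all genes were), with a median of -4.67. Cubn, an endocytic receptor of the brush border, stood at 8.00, 89.0 and 27.0 FPKM in primary and 0.666, 0.815 and 0.439 in allograft tumors (-4.12 ± 0.79, adjusted p = 0.0246). Slc34a1 itself stood at 6.17, 833 and 166 FPKM against 1.37, 0.970 and 0.120 FPKM and did not pass (-5.85 ± 1.62, adjusted p = 0.0539). The primary tumors spread widely for this gene, with tumor 1 near the allograft tumors and tumor 2 highest. Without primary tumors 2 and 3 the median of the list shrank from -4.67 to -0.96. Proximal tubule genes called lower numbered 0, 2 and 0 without allograft tumor 1, 2 or 3 and 30, 4 and 0 without primary tumor 1, 2 or 3.

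Among 9 podocyte genes, 5 fell and 1 rose, beside 9.13% and 8.61% of all genes, with a median of -1.64. The change was positive in 2 of the 9, at most 0.95. Podocytes form the filter of the glomerulus, and they lie outside the tubule in which Slc34a1 is active. Nphs1, which encodes nephrin of the slit diaphragm, stood at 4.93, 11.5 and 5.92 FPKM in primary and 0.118, 0.503 and 0.356 in allograft tumors (-2.60 ± 0.33, adjusted p = 0.0124). Nphs1 was thus measured in all 3 primary tumors and was under 1 FPKM in all 3 allograft tumors. The part of kidney tissue outside the tumor in this and the other differences was not tested.

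Transcription factors and a cadherin that mark the renal lineage were also lower in allograft tumors. Of 16 tested, 10 fell and 0 rose, with a median of -1.63. Cdh16, the kidney-specific cadherin, stood at 189, 452 and 489 FPKM in primary and 2.16, 9.09 and 0.820 in allograft tumors (-6.49 ± 0.69, adjusted p = 0.00914). Tfcp2l1, a factor of the distal nephron and collecting duct, stood at 57.1, 103 and 126 FPKM against 4.26, 5.54 and 9.35 FPKM (-3.69 ± 0.39, adjusted p = 0.00914). Both held in each fit without 1 library except that without allograft tumor 1. Hnf4a, which drives proximal tubule genes, stood at 9.10, 167 and 54.4 FPKM against 0.232, 1.23 and 0.213 FPKM (-4.93 ± 0.98, adjusted p = 0.0262). Pax8, a marker used to trace tumors to the kidney, kept a level of 7.22, 16.8 and 12.2 FPKM in allograft tumors against 40.0, 30.6 and 48.7 in primary tumors (-1.69 ± 0.35, adjusted p = 0.0279). The call of Pax8 was lost after TPM rescaling. In the lung metastases, which carry the genotype of the primary tumors, Cdh16 stood at 62.3, 20.1 and 20.9 FPKM, between the groups, and the difference of allograft tumors from metastases was -2.99 ± 0.72, adjusted p = 0.0282. That comparison reuses the allograft libraries and called 25.7% of all genes, 11.2% higher and 14.5% lower in allograft tumors. Renal lineage genes called lower numbered 0, 3 and 2 without allograft tumor 1, 2 or 3 and 11, 4 and 3 without primary tumor 1, 2 or 3.

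Several adhesion genes of epithelia fell in allograft tumors, while a pair of keratins rose. Of 28 genes of tumor epithelium, 8 fell and 3 rose, beside 9.13% and 8.61% of all genes, so the rises were a share near that of all genes. Cdh1, which encodes E-cadherin, stood at 38.6, 44.2 and 71.0 FPKM in primary tumors and at 0.938, 7.87 and 2.01 in allograft tumors (-3.76 ± 0.59, adjusted p = 0.0178). Every allograft value lay under every primary value, and allograft tumor 2 kept the most. The junction gene Ocln (occludin) stood at 12.1, 15.9 and 19.7 FPKM against 0.328, 1.76 and 0.294 FPKM (-3.30 ± 0.37, adjusted p = 0.00952), and Cldn7, a claudin, at 25.5, 12.6 and 27.8 FPKM against 0.860, 5.46 and 1.52 FPKM (-2.81 ± 0.54, adjusted p = 0.0251). Esrp1 and Esrp2, which encode splicing factors of epithelial cells, fell (-2.32 and -2.11). Muc1, a surface mucin, stood at 11.6, 6.66 and 33.9 FPKM against 0.266, 2.73 and 0.387 FPKM (-3.001 ± 0.67, adjusted p = 0.0332). Psca, a surface protein gene of a list of urothelial markers, stood at 46.4, 24.7 and 95.1 FPKM against 0.175, 1.62 and 1.91 FPKM (-4.56 ± 0.58, adjusted p = 0.0125). Of the 8 genes of that list only 2 were tested, and the other went the opposite way and was not called (0.70). The uroplakins Upk1a, Upk2 and Upk3a of that list were under the filter.

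Krt8 and Krt18 encode the keratin pair of simple epithelia and were named after their values had been seen. Krt18 stood at 62.2, 23.9 and 42.5 FPKM in primary and 197, 250.1 and 249.99 in allograft tumors (2.503 ± 0.37, adjusted p = 0.0163), and Krt8 at 115, 100.4 and 85.6 FPKM against 224, 247 and 295 FPKM (1.34 ± 0.24, adjusted p = 0.0221). Both were above every primary tumor in every allograft tumor. Krt19 (1.28 ± 0.53, adjusted p = 0.135) and Epcam (-3.29 ± 0.97, adjusted p = 0.0627) did not pass. The allograft tumors therefore held more Krt8 and Krt18 transcript and less E-cadherin transcript at once. Against the metastases, Cdh1 was also lower in allograft tumors (-3.78 ± 0.53, adjusted p = 0.00522) and Krt18 higher (1.27 ± 0.17, adjusted p = 0.00473).

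Msln encodes mesothelin, a surface protein of mesothelium and of several carcinomas. It stood at 2.67, 0.250 and 1.24 FPKM in primary and 93.4, 115 and 309.9 in allograft tumors (6.11 ± 0.58, adjusted p = 0.00752) and was called in each of the 6 fits without 1 library. The metastases held 14.3, 13.7 and 9.70 FPKM and differed from the allograft tumors by 3.49 ± 0.45, adjusted p = 0.00418. Epithelial genes called lower numbered 0, 6 and 1 without allograft tumor 1, 2 or 3 and 10, 5 and 1 without primary tumor 1, 2 or 3. Those called higher numbered 1, 1 and 1 and then 6, 2 and 1 in the same fits.

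Genes of the mesenchymal state were higher in allograft tumors, though few passed. Of 22 genes 5 rose and 0 fell, beside 8.61% and 9.13% of all genes, with a median of 1.69. In 11 every allograft value lay above every primary value (21.2% of all genes). Cdh2, which encodes N-cadherin, stood at 43.3, 3.56 and 4.53 FPKM in primary and 100.2, 112 and 219 in allograft tumors (3.71 ± 0.89, adjusted p = 0.0394). Lgals1, the galactose-binding lectin galectin 1, stood at 559.8, 66.9 and 54.4 FPKM against 2873, 1924 and 2018 FPKM (4.12 ± 0.89, adjusted p = 0.0312). Both calls were lost after quantile normalization, and that of Cdh2 also without the 50 most abundant genes. Fosl1, a subunit of the AP-1 factor, stood at 0.0741, 0 and 0.0392 FPKM against 5.68, 3.71 and 11.4 FPKM (2.82 ± 0.36, adjusted p = 0.0131). Vim, the gene of vimentin, stood at 465, 67.9 and 76.0 FPKM against 591, 713 and 777 FPKM and did not pass (2.35 ± 0.75, adjusted p = 0.0745). Of the transcription factors of this state, Twist1 stood at 7.98, 0.605 and 0.455 FPKM against 16.2, 11.03 and 1.96 FPKM, with overlap (1.62 ± 0.93, adjusted p = 0.253), and Zeb1 at 20.6, 12.3 and 16.2 FPKM against 24.6, 24.4 and 24.7 FPKM (0.59 ± 0.24, adjusted p = 0.133). Primary tumor 1 was the highest primary tumor for Cdh2, Lgals1 and Vim. Without primary tumors 2 and 3 the list's median fell to 0.39. Mesenchymal genes called higher numbered 0, 1 and 1 without allograft tumor 1, 2 or 3 and 15, 1 and 0 without primary tumor 1, 2 or 3.

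**Figure D2:**
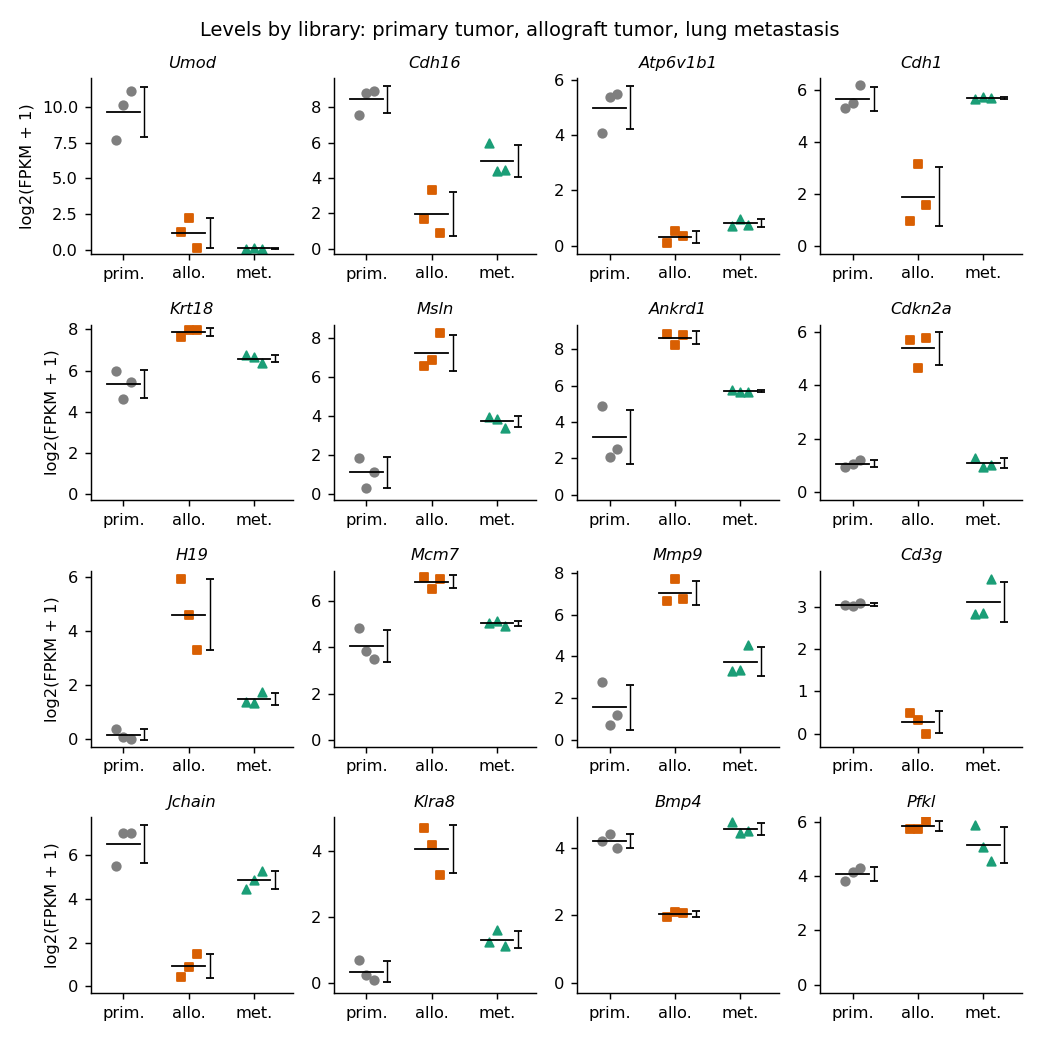
Levels of 16 genes as log2(FPKM + 1) (y axis) in the 3 primary tumors (circles), 3 allograft tumors (squares) and 3 lung metastases (triangles). Horizontal lines are means and the bars beside them 1 SD. Allograft tumors stand apart from both other groups for Cdkn2a and Bmp4, and near the metastases for Umod.

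Targets of YAP and TAZ were compared next, since both groups are labelled as lacking the kinases that restrain these coactivators. Of 25 tested targets 5 rose and 1 fell, beside 8.61% and 9.13% of all genes. In 12 every allograft value lay above every primary value (21.2% of all genes). The median was 0.71, and 0.30 without primary tumors 2 and 3. Ankrd1, a gene used as a readout of YAP activity, stood at 27.9, 3.26 and 4.74 FPKM in primary tumors and at 462, 294 and 442 in allograft tumors (5.46 ± 0.72, adjusted p = 0.0131). The metastases held 53.3, 48.8 and 49.7 FPKM and differed from the allograft tumors by 2.93 ± 0.20, adjusted p = 6.56e-04. Ccn1, which encodes a secreted matrix-associated protein, stood at 87.3, 20.6 and 27.1 FPKM against 318, 248 and 204 FPKM (2.75 ± 0.55, adjusted p = 0.0263). Its neighbour in function Ccn2 stood at 183, 48.6 and 68.1 FPKM against 169, 209 and 354 FPKM, with overlap, and did not pass (1.44 ± 0.55, adjusted p = 0.114). Axl, a receptor kinase gene, stood at 205, 46.6 and 48.1 FPKM against 326, 228 and 382 FPKM (1.97 ± 0.61, adjusted p = 0.0708). Gadd45b, Rnd3 and Mybl1 rose by 2.32, 2.03 and 1.51. The 1 member that fell was Nt5e, an ectoenzyme that makes adenosine, at 13.7, 39.0 and 22.05 FPKM in primary and 7.68, 8.04 and 6.62 in allograft tumors (-1.50 ± 0.38, adjusted p = 0.0441). YAP target genes called higher numbered 0, 2 and 0 without allograft tumor 1, 2 or 3 and 11, 1 and 0 without primary tumor 1, 2 or 3, and 3 after TPM rescaling.

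The proximal promoters of Ankrd1 and Ccn1 are shown because both genes rose and both hold the core of the TEAD binding motif, the DNA element through which YAP acts. The runs are the 140 bases before the start site on the gene's own strand, from RefSeq (GRCm38.p6), with the core CATTCC or its reverse complement in capitals.
Ankrd1, chr19:36119845-36119984, minus strand: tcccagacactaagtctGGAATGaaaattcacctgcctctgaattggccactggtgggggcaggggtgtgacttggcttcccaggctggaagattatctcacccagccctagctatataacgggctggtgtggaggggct
Ccn1, chr3:145649986-145650125, minus strand: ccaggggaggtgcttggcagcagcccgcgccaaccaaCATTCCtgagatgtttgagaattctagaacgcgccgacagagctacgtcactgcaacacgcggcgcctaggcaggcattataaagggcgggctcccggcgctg
The core began 123 bases before the start in Ankrd1 and 103 in Ccn1. In the 250 bases before the start it was held, on either strand, by 8 of 19 targets that matched the promoter table (42.1%) and by 14.4% of all genes in that table. A match is only a run of letters, and nothing was measured here on binding.

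Of 20 components of the Hippo pathway itself, 4 rose and 2 fell, beside 8.61% and 9.13% of all genes. The falls were thus a share near that of all genes. Tead2, 1 of the TEAD partners of YAP, stood at 13.8, 1.80 and 3.11 FPKM in primary and 63.3, 42.8 and 39.1 in allograft tumors (3.12 ± 0.63, adjusted p = 0.0266). Tead1, Tead3 and Tead4 did not pass (-0.11, 0.54 and 0.54). Frmd6, an upstream regulator, stood at 14.8, 4.52 and 7.36 FPKM against 54.3, 42.9 and 60.4 FPKM (2.56 ± 0.41, adjusted p = 0.0184). Yap1 stood at 26.9, 28.7 and 29.5 FPKM against 8.83, 14.0 and 21.9 FPKM, lower in every allograft tumor, and did not pass (-0.97 ± 0.33, adjusted p = 0.0905). Wwtr1, which encodes TAZ, stood at 32.6, 30.8 and 25.3 FPKM against 33.9, 30.1 and 25.3 FPKM (0.01 ± 0.22, adjusted p = 0.983). Neither coactivator transcript passed as higher, while Ankrd1 did. The sign of the small Wwtr1 difference turned under several settings. Hippo component genes called higher numbered 0, 0 and 0 without allograft tumor 1, 2 or 3 and 4, 1 and 0 without primary tumor 1, 2 or 3, and 2 after TPM rescaling.

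Cell cycle genes moved together. All 20 genes of DNA replication rose, and all 20 were higher in every allograft than in every primary tumor, beside 8.61% and 21.2% of all genes, with a median of 2.45. Mcm7, a subunit of the replicative helicase, stood at 27.9, 13.2 and 10.3 FPKM in primary and 131, 92.6 and 124 in allograft tumors (2.79 ± 0.39, adjusted p = 0.0138). Pcna, the sliding clamp of DNA polymerases, stood at 77.5, 38.7 and 31.5 FPKM against 358, 180.4 and 216 FPKM (2.38 ± 0.43, adjusted p = 0.0228). Prim1, a primase subunit, stood at 10.9, 5.15 and 6.57 FPKM against 88.6, 35.0 and 46.1 FPKM (2.70 ± 0.42, adjusted p = 0.0178). Cdc6 and Cdt1, which load the helicase at origins, rose by 2.71 and 1.98, and the S phase cyclins Ccne1 and Ccne2 by 1.99 and 2.64. Primary tumor 1 was the highest primary tumor for each of these 7 genes. The genes were also higher than in the metastases, for example Mcm7 (1.81 ± 0.17, adjusted p = 0.00157) and Prim1 (1.97 ± 0.33, adjusted p = 0.00892).

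Mitosis genes gave the same direction, with 16 of 20 called, 0 lower and a median of 2.85. All 20 were higher in every allograft than in every primary tumor. Top2a, the topoisomerase that unlinks chromosomes, stood at 38.4, 4.31 and 4.81 FPKM in primary and 281, 117 and 131 in allograft tumors (3.94 ± 0.83, adjusted p = 0.0289). Ccna2, an S and G2 phase cyclin, stood at 21.9, 2.68 and 2.14 FPKM against 133, 60.9 and 82.2 FPKM (3.78 ± 0.79, adjusted p = 0.0288), and Cdk1, the kinase that starts mitosis, at 12.9, 1.03 and 0.699 FPKM against 69.1, 32.1 and 43.0 FPKM (3.68 ± 0.83, adjusted p = 0.0338). Mki67 stood at 28.7, 3.74 and 6.34 FPKM against 54.5, 40.6 and 55.9 FPKM and did not pass (2.33 ± 0.67, adjusted p = 0.0581), nor did Plk1, Foxm1 and Ccnb2. For these 4 genes, too, primary tumor 1 was the highest primary tumor. Without primary tumors 2 and 3 the medians of the replication and mitosis lists were 1.51 and 1.36. Replication genes called higher numbered 0, 7 and 0 without allograft tumor 1, 2 or 3 and 20, 4 and 0 without primary tumor 1, 2 or 3. Mitosis genes called higher numbered 0, 0 and 0 without allograft tumor 1, 2 or 3 and 20, 0 and 0 without primary tumor 1, 2 or 3.

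Promoters of mitotic genes often hold the cell cycle element TTTGAA, which binds repressors of resting cells, and the CCAAT box, which binds NF-Y. The 140 bases before the start of Cdk1, Kif11 and Ccnb1, a kinase, a spindle motor and a cyclin that all rose, show 1 or both kinds of element. Matches on either strand are in capitals, and the runs come from RefSeq (GRCm38.p6).
Cdk1, chr10:69352913-69353052, minus strand: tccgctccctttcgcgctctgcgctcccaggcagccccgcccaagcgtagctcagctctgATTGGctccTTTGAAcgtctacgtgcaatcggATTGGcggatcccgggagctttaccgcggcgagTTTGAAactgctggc
Kif11, chr19:37376242-37376381, plus strand: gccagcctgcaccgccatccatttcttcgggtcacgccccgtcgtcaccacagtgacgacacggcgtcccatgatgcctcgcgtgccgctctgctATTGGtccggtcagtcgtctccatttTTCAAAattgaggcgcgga
Ccnb1, chr13:100786487-100786626, minus strand: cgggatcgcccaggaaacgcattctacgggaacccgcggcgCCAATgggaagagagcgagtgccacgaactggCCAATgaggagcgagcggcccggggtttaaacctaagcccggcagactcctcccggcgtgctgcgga
Cdk1 holds the cell cycle element beginning 71 and 15 bases before the start and the CCAAT box at 80 and 48. Kif11 holds 1 of each, at 19 and 45 bases, and Ccnb1 holds only the CCAAT box, at 99 and 67. In the 250 bases before the start, TTTGAA was held by 7 of 15 matched mitosis genes (46.7%), 1 of 17 replication genes (5.88%) and 18.3% of all genes. The CCAAT box was held by 13 of 15 mitosis genes (86.7%), 11 of 17 replication genes (64.7%) and 37.5% of all genes. The searched motifs do not overlap each other in these runs.

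Cell cycle inhibitors did not move together. Cdkn2a, at chr4:89274471-89294653 in GRCm38, encodes the inhibitors p16 and p19ARF from alternative first exons, which a gene-level value does not separate. It stood at 0.898, 1.09 and 1.30 FPKM in primary tumors and at 50.9, 24.2 and 54.1 in allograft tumors (4.32 ± 0.35, adjusted p = 0.00598). The primary values lay within 0.898 to 1.30 FPKM and the lowest allograft value was 24.2, and the call held in each of the 6 fits without 1 library. The metastases, at 1.45, 0.913 and 1.02 FPKM, lay with the primary tumors, and the allograft tumors differed from them by 4.30 ± 0.33, adjusted p = 8.18e-04. Cdkn2b, the neighbouring gene of p15, stood at 4.67, 2.97 and 8.42 FPKM against 40.0, 17.8 and 28.8 FPKM (2.25 ± 0.43, adjusted p = 0.0245). Cdkn1c, the gene of the imprinted inhibitor p57, fell from 28.4, 40.0 and 19.8 to 3.29, 3.56 and 5.95 FPKM (-2.51 ± 0.34, adjusted p = 0.0131). Of p53 targets, Mdm2 (0.88 ± 0.18, adjusted p = 0.0292), Phlda3 (2.26 ± 0.48, adjusted p = 0.0306) and Bax (1.05 ± 0.28, adjusted p = 0.0493) rose, that of Phlda3 not after TPM rescaling or without the 50 most abundant genes. Cdkn1a stood at 14.3, 5.02 and 7.14 FPKM against 12.5, 12.9 and 24.3 FPKM, with overlap (0.89 ± 0.43, adjusted p = 0.187), and Trp53 did not pass (0.77). In all, 5 of 20 genes of this list rose and 1 fell, beside 8.61% and 9.13% of all genes. After TPM rescaling 2 rose and 1 fell. Inhibitor and p53 genes called higher numbered 1, 2 and 2 without allograft tumor 1, 2 or 3 and 6, 1 and 1 without primary tumor 1, 2 or 3.

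**Figure D3:**
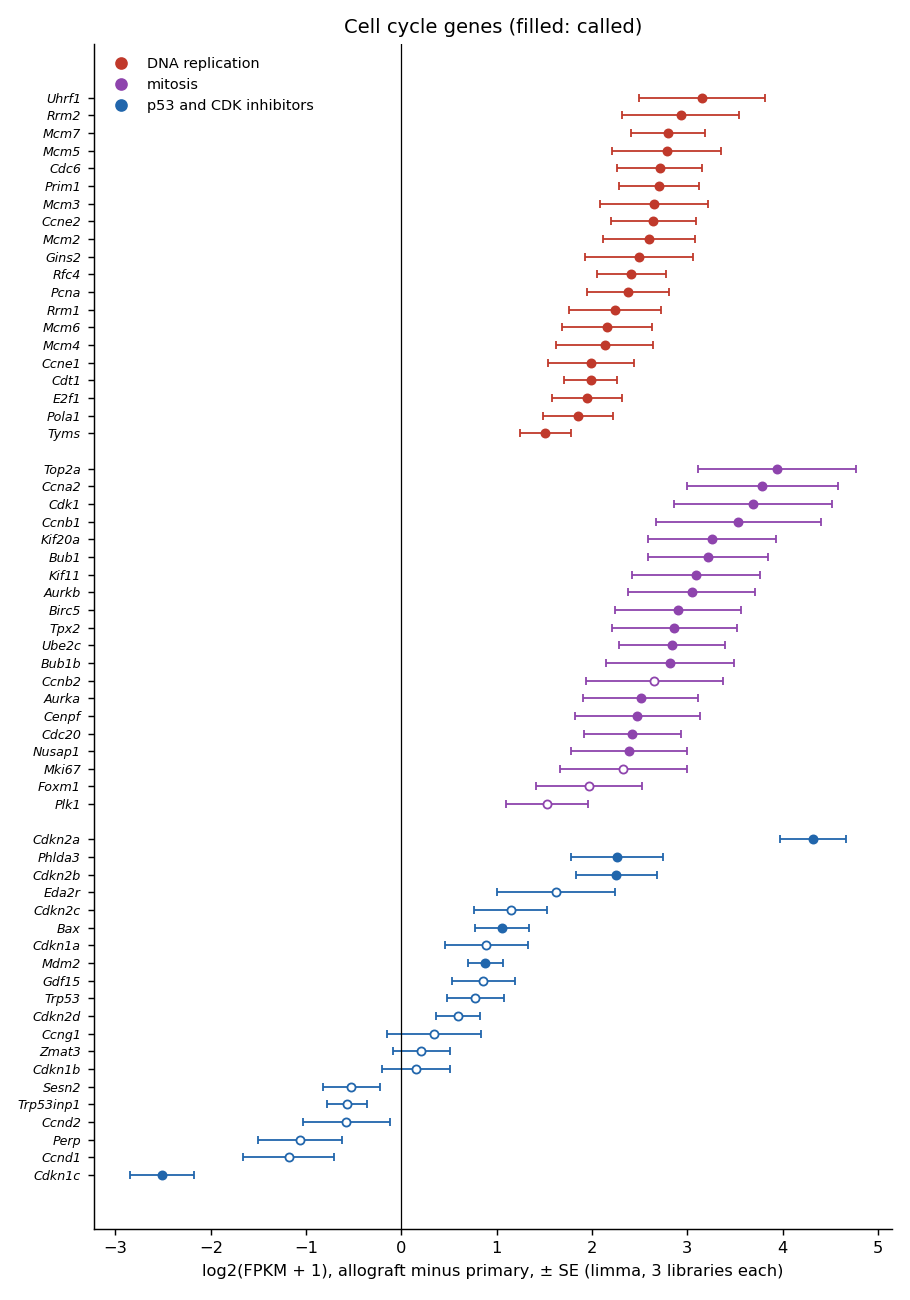
Log2 change ± SE (x axis, allograft minus primary) of the genes (rows) of DNA replication, mitosis, and p53 with CDK inhibitors. Filled points were called and open points were not. All replication and mitosis genes lie to the right of 0, while the inhibitors spread from -2.51 (Cdkn1c) to 4.32 (Cdkn2a).

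Histone genes were looked at after their values had been seen. Of 68 tested histone genes 48 rose and 0 fell, and their median change was 3.14. Their summed level was 13838, 4382 and 3159 FPKM in primary tumors and 55607, 28247 and 42363 in allograft tumors. Histone genes called higher numbered 2, 9 and 4 without allograft tumor 1, 2 or 3 and 59, 8 and 4 without primary tumor 1, 2 or 3. Replication-dependent histone transcripts lack a poly(A) tail, and the labels do not say whether the libraries were selected for poly(A).

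A part of the glycolysis genes rose in allograft tumors. Of 17 genes 7 passed higher and 0 lower, with a median of 1.29. Ldha, the lactate dehydrogenase subunit of glycolytic cells, stood at 176, 435 and 182 FPKM in primary and 1132, 612 and 788 in allograft tumors (1.76 ± 0.46, adjusted p = 0.0466). Its call was lost after TPM rescaling. Pfkl, a phosphofructokinase gene, stood at 13.0, 16.7 and 18.9 FPKM against 52.9, 52.2 and 65.2 FPKM (1.76 ± 0.23, adjusted p = 0.0131) and held in each fit without 1 library except that without allograft tumor 1. Pkm, the pyruvate kinase of most tumors, stood at 213, 117 and 184 FPKM against 931, 574 and 707 FPKM (2.11 ± 0.34, adjusted p = 0.0189). Hk2, a hexokinase, stood at 9.14, 1.06 and 1.47 FPKM against 22.04, 24.8 and 46.4 FPKM (3.03 ± 0.66, adjusted p = 0.0312), and Slc16a3, a lactate exporter, at 4.29, 0.810 and 1.21 FPKM against 27.5, 19.9 and 15.2 FPKM (2.94 ± 0.46, adjusted p = 0.0180). Pgk1 and Pgam1 rose by 1.98 and 1.72. Among the primary tumors, Ldha and Pgk1 were highest in tumor 2 and Pfkl in tumor 3. Pkm, Hk2 and Slc16a3 were highest in tumor 1, like the cell cycle genes. The list's median without primary tumors 2 and 3 was 1.59. Glycolysis genes called higher numbered 0, 2 and 1 without allograft tumor 1, 2 or 3 and 5, 7 and 1 without primary tumor 1, 2 or 3.

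Hypoxia targets overlap in part with glycolysis. Of 18 genes 7 rose and 1 fell, beside 8.61% and 9.13% of all genes. The median was 1.41, and 3 rose after TPM rescaling. Hypoxia genes called higher numbered 0, 2 and 2 without allograft tumor 1, 2 or 3 and 7, 3 and 0 without primary tumor 1, 2 or 3. Hilpda, a lipid droplet gene, stood at 4.41, 2.79 and 3.12 FPKM in primary and 20.5, 25.5 and 68.4 in allograft tumors (2.96 ± 0.47, adjusted p = 0.0183). P4ha1, a collagen prolyl hydroxylase, stood at 115, 72.9 and 53.1 FPKM against 424, 295 and 317 FPKM (2.14 ± 0.34, adjusted p = 0.0185), and Ankrd37 at 2.31, 1.77 and 2.10 FPKM against 12.9, 9.47 and 14.4 FPKM (2.10 ± 0.24, adjusted p = 0.0100). The 2 genes of the oxygen-regulated subunits moved apart. Hif1a stood at 50.3, 46.9 and 63.7 FPKM against 115, 96.7 and 124 FPKM (1.05 ± 0.23, adjusted p = 0.0306), while Epas1, which encodes HIF2 alpha, stood at 23.1, 27.8 and 40.7 FPKM against 3.72, 10.5 and 4.80 FPKM (-2.17 ± 0.40, adjusted p = 0.0241). Both lost their call without allograft tumor 1 or 3 and without primary tumor 2 or 3. Epas1 is also a gene of endothelium, of whose 17 markers 6 fell and 1 rose. The part of endothelium in the fall of Epas1 was not tested.

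Genes of the ATF4 response, which supplies amino acids under stress, rose in 10 of 17 cases with 0 lower and a median of 1.35. Phgdh, the entry enzyme of serine synthesis, stood at 47.5, 8.22 and 6.72 FPKM in primary and 319, 142 and 121 in allograft tumors (3.56 ± 0.77, adjusted p = 0.0312). Aldh18a1, of proline synthesis, stood at 10.4, 2.45 and 3.79 FPKM against 51.0, 27.2 and 42.8 FPKM (2.80 ± 0.49, adjusted p = 0.0221). Trib3, a target of ATF4 and CHOP, stood at 0.718, 0.356 and 0.190 FPKM against 10.2, 3.87 and 7.83 FPKM (2.48 ± 0.35, adjusted p = 0.0150). Psat1, Mthfd2, Asns and Atf4 itself rose by 2.05, 2.30, 2.06 and 1.35. ATF4 genes called higher numbered 0, 3 and 1 without allograft tumor 1, 2 or 3 and 10, 1 and 0 without primary tumor 1, 2 or 3.

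Few genes of oxidative metabolism passed, and those that did were lower. Of 23 respiratory chain genes and regulators 1 fell and 0 rose, and that gene was Ppargc1a, the coactivator of mitochondrial biogenesis, at 3.91, 17.3 and 19.4 FPKM in primary and 0.425, 0.462 and 0.757 in allograft tumors (-2.99 ± 0.56, adjusted p = 0.0242). Of 22 genes of fatty acid oxidation and peroxisomes 3 fell, beside 9.13% of all genes, with a median of -1.96. Fatty acid genes called lower numbered 0, 0 and 0 without allograft tumor 1, 2 or 3 and 15, 0 and 0 without primary tumor 1, 2 or 3. Cpt1a, which admits fatty acids to mitochondria, stood at 42.7, 169.9 and 82.7 FPKM against 12.9, 20.1 and 14.4 FPKM (-2.37 ± 0.50, adjusted p = 0.0300). This list's median was -0.32 without primary tumors 2 and 3, the libraries rich in proximal tubule transcripts. The part of tubule transcripts in these differences was not tested.

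**Figure D4:**
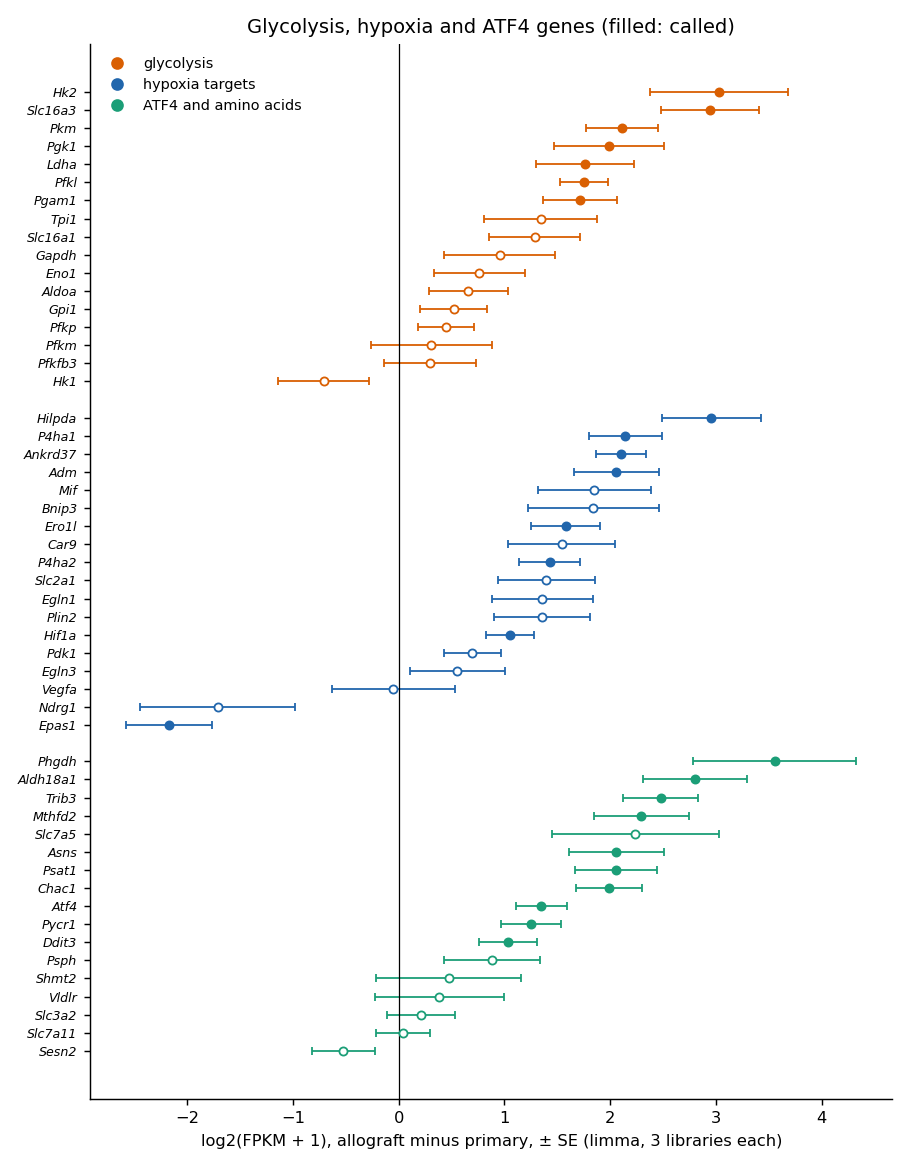
Log2 change ± SE (x axis, allograft minus primary) of genes (rows) of glycolysis, hypoxia and the ATF4 response, each gene drawn once. Filled points were called. Hk2 and Slc16a3 lead the glycolysis genes at 3.03 and 2.94, Phgdh leads the ATF4 genes at 3.56, and Epas1 was the gene called lower.

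Several genes active in the fetus and silenced in most adult tissues rose. Of 13 tested genes of the MYC and oncofetal list 6 rose and 0 fell. H19, an imprinted noncoding RNA, stood at 0.291, 0.0315 and 0 FPKM in primary and 60.0, 23.5 and 8.73 in allograft tumors (4.47 ± 0.64, adjusted p = 0.0151). Its imprinted neighbour Igf2, the fetal growth factor, stood at 1.08, 0.642 and 0.754 FPKM against 21.2, 6.92 and 12.1 FPKM (2.86 ± 0.40, adjusted p = 0.0138). Igf2bp2, an RNA-binding protein gene, stood at 1.75, 1.84 and 1.82 FPKM against 11.4, 9.23 and 22.8 FPKM (2.37 ± 0.35, adjusted p = 0.0160), and the chromatin proteins Hmga1 and Hmga2 rose by 2.33 and 2.26. Primary values of H19 and Igf2 were near or under 1 FPKM in all 3 tumors. The call of H19 was lost without primary tumor 3 only, and that of Igf2 without allograft tumor 1 or 3 or primary tumor 3. Against the metastases, H19 (3.15 ± 0.63, adjusted p = 0.0157), Igf2 (1.82 ± 0.42, adjusted p = 0.0252) and Igf2bp2 (2.14 ± 0.32, adjusted p = 0.00668) were higher in allograft tumors too. Oncofetal genes called higher numbered 1, 4 and 2 without allograft tumor 1, 2 or 3 and 7, 3 and 0 without primary tumor 1, 2 or 3.

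Of 38 genes of growth factors and receptors 7 rose and 4 fell, the latter a share near that of all genes (9.13%). After TPM rescaling 2 rose and 4 fell, and without the 50 most abundant genes 2 and 5. Growth factor genes called higher numbered 0, 1 and 1 without allograft tumor 1, 2 or 3 and 10, 3 and 2 without primary tumor 1, 2 or 3. Bmp4, a signal in kidney development, fell from 17.3, 20.2 and 14.8 to 2.83, 3.26 and 3.20 FPKM (-2.16 ± 0.22, adjusted p = 0.00914). The EGF family ligand Hbegf stood at 12.03, 9.18 and 8.03 FPKM against 45.1, 35.2 and 55.4 FPKM (2.10 ± 0.26, adjusted p = 0.0124), while Erbb3, a receptor of this family, fell from 9.41, 36.2 and 19.7 to 0.689, 2.48 and 0.368 FPKM (-3.32 ± 0.56, adjusted p = 0.0204). Wnt7b, a Wnt ligand of the collecting duct, stood at 4.79, 1.80 and 8.31 FPKM against 41.6, 39.1 and 26.3 FPKM (2.76 ± 0.47, adjusted p = 0.0204), and Wnt10a rose by 1.64. Pdgfa rose from 19.4, 11.9 and 16.4 to 43.1, 41.5 and 54.7 FPKM (1.504 ± 0.25, adjusted p = 0.0203). Fgf1, a ligand of FGF receptors, fell from 9.20, 47.6 and 50.1 to 0.681, 3.17 and 1.02 FPKM (-3.60 ± 0.71, adjusted p = 0.0258). Among immediate early genes 3 of 17 rose, beside 8.61% of all genes, and 1 of the 17 passed after TPM rescaling. Ier3 rose (1.75 ± 0.26, adjusted p = 0.0169) but lost its call after that rescaling. Of 24 Hox genes, 1 rose and 4 fell, beside 8.61% and 9.13% of all genes. After TPM rescaling 0 rose and 2 fell. Hox genes called lower numbered 0, 0 and 1 without allograft tumor 1, 2 or 3 and 6, 1 and 0 without primary tumor 1, 2 or 3. Hoxb7 stood at 20.8, 17.9 and 23.4 FPKM against 11.4, 10.5 and 11.1 FPKM (-0.85 ± 0.20, adjusted p = 0.0394), and Hoxa11 and Hoxd3 fell too (-1.28 and -1.96).

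Of 30 genes of a matrix list 4 rose and 1 fell, beside 8.61% and 9.13% of all genes. The list's median was 1.20, and -0.22 without primary tumors 2 and 3. Mmp9, a gelatinase, stood at 5.90, 0.658 and 1.35 FPKM in primary and 99.2, 209 and 107 in allograft tumors (5.45 ± 0.59, adjusted p = 0.00923). Mmp13, a collagenase, stood at 4.51, 0.846 and 0.729 FPKM against 17.3, 13.7 and 33.7 FPKM (3.01 ± 0.55, adjusted p = 0.0237). Plau, which encodes the urokinase plasminogen activator, fell from 188, 209 and 289.8 to 68.1, 49.5 and 49.6 FPKM (-2.01 ± 0.27, adjusted p = 0.0131). Matrix genes called higher numbered 0, 1 and 1 without allograft tumor 1, 2 or 3 and 17, 1 and 1 without primary tumor 1, 2 or 3. Fbln2, a fibulin of matrix and the basement membrane and 1 of the largest rises outside the lists, stood at 30.6, 3.70 and 3.59 FPKM against 259, 224 and 205 FPKM (4.70 ± 0.75, adjusted p = 0.0185).

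Markers of fibroblasts rose in 3 of 18 cases, with 0 lower, and in 1 after TPM rescaling. Fibroblast genes called higher numbered 0, 1 and 1 without allograft tumor 1, 2 or 3 and 9, 1 and 0 without primary tumor 1, 2 or 3. Fap, a protease gene of activated fibroblasts, stood at 4.07, 1.53 and 1.93 FPKM in primary and 26.1, 21.7 and 15.4 in allograft tumors (2.69 ± 0.35, adjusted p = 0.0131). The collagen genes Col1a1 and Col3a1 did not pass (2.13 ± 0.71, adjusted p = 0.0825, and 2.92 ± 0.98, adjusted p = 0.0848), and Pdgfra stood at 36.4, 24.7 and 41.3 FPKM against 7.21, 20.3 and 6.54 FPKM (-1.65 ± 0.45, adjusted p = 0.0527). Of 17 endothelial markers 6 fell and 1 rose, beside 9.13% and 8.61% of all genes. Emcn, which encodes a sialomucin of capillaries and veins, stood at 69.8, 65.5 and 77.7 FPKM against 11.8, 21.3 and 16.3 FPKM (-2.07 ± 0.26, adjusted p = 0.0124). Ehd3, a gene of glomerular endothelium, stood at 10.1, 16.1 and 13.9 FPKM against 0.918, 2.37 and 1.09 FPKM (-2.57 ± 0.31, adjusted p = 0.0122). Pecam1, a pan-endothelial gene, did not pass (-0.51 ± 0.31, adjusted p = 0.272). Lyve1, of lymphatic endothelium and some macrophages, rose from 2.45, 0.190 and 0.339 to 10.7, 49.5 and 13.8 FPKM (3.55 ± 0.67, adjusted p = 0.0245). Endothelial genes called lower numbered 0, 4 and 2 without allograft tumor 1, 2 or 3 and 7, 2 and 1 without primary tumor 1, 2 or 3.

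Lymphocyte genes were lower in the allograft tumors. Of 19 T cell genes 14 fell and 0 rose, with a median of -1.11, beside 9.13% of all genes. Cd3g, a chain of the T cell receptor complex, stood at 7.25, 7.04 and 7.51 FPKM in primary and 0.411, 0.254 and 0 in allograft tumors (-2.77 ± 0.21, adjusted p = 0.00493) and was called in each of the 6 fits without 1 library. Trbc2, a constant segment of the receptor's beta chain, stood at 15.7, 16.3 and 15.3 FPKM against 0.500, 1.496 and 0 FPKM (-3.43 ± 0.36, adjusted p = 0.00914), and lost its call without allograft tumor 1 only. Cd8b1, of cytotoxic T cells, stood at 2.172, 1.76 and 2.15 FPKM against 0.0455, 0.294 and 0.0661 FPKM (-1.42 ± 0.17, adjusted p = 0.0122). The primary tumors were even for these 3 genes, in contrast to the tubule genes. Cd4, which macrophages and dendritic cells express as well, stood at 8.96, 5.94 and 8.26 FPKM against 5.84, 7.35 and 4.95 FPKM, with overlap (-0.30 ± 0.26, adjusted p = 0.425). Cd8a did not pass (-0.52 ± 0.17, adjusted p = 0.0808). Trac kept 2.89, 4.65 and 4.11 FPKM in allograft tumors against 20.0, 18.5 and 32.9 in primary tumors. T cell genes called lower numbered 2, 5 and 6 without allograft tumor 1, 2 or 3 and 15, 10 and 6 without primary tumor 1, 2 or 3.

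Of 16 genes of B and plasma cells 6 fell and 0 rose. Jchain, which joins polymeric antibodies in plasma cells, stood at 43.8, 129 and 127 FPKM in primary and 0.344, 0.821 and 1.83 in allograft tumors (-5.57 ± 0.51, adjusted p = 0.00726). Igha, the constant segment of IgA, was named after its values had been seen. It stood at 313, 365 and 248 FPKM in primary and 0.481, 0.111 and 0.874 in allograft tumors (-7.72 ± 0.28, adjusted p = 0.00110). Both held in each of the 6 fits without 1 library. Ighm, the constant segment of IgM, stood at 71.0, 157 and 296 FPKM against 55.6, 28.9 and 6.20 FPKM, lower in every allograft tumor, and did not pass (-2.71 ± 0.86, adjusted p = 0.0743). Some Ighm transcript was thus measured in every allograft tumor, most in allograft tumor 1. In the metastases Cd3g stood at 6.04, 6.16 and 11.6 FPKM and Igha at 86.7, 95.2 and 129. B and plasma cell genes called lower numbered 1, 1 and 1 without allograft tumor 1, 2 or 3 and 11, 1 and 1 without primary tumor 1, 2 or 3.

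Of 12 tested genes of natural killer cells and cytotoxic lymphocytes 2 rose and 2 fell, beside 8.61% and 9.13% of all genes. Klrb1c, Eomes, Tbx21 and Ifng were under the filter. With no filter on low values, 2 of 16 genes rose and 4 fell. Klra8, an activating Ly49 receptor, stood at 0.622, 0.180 and 0.0633 FPKM in primary and 25.1, 17.4 and 8.75 in allograft tumors (3.72 ± 0.40, adjusted p = 0.00924), and Klra4, of the same family, at 0.393, 0.194 and 0.346 FPKM against 14.99, 3.76 and 29.1 FPKM (3.33 ± 0.65, adjusted p = 0.0252). The Ly49 genes differ between mouse strains and are near copies of each other, so reads may be placed on the wrong member. Nkg7, of cytotoxic granules, stood at 2.89, 3.29 and 3.72 FPKM against 0.188, 0.864 and 0.180 FPKM (-1.64 ± 0.24, adjusted p = 0.0161), and Ccl5, a chemokine of T and NK cells, at 41.0, 16.3 and 11.2 FPKM against 3.60, 3.50 and 1.65 FPKM (-2.44 ± 0.51, adjusted p = 0.0281). Ncr1, the defining receptor of NK cells, stood at 0.666, 0.634 and 0.503 FPKM against 0.393, 1.34 and 0.191 FPKM (-0.03 ± 0.27, adjusted p = 0.957).

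Macrophage genes were mostly not called. Of 23 genes 3 rose and 0 fell, beside 8.61% and 9.13% of all genes, with a median of 1.40. In 3 genes all allograft values lay above all primary values and in 3 below them, a smaller share than the 21.2% and 22.5% of all genes. Macrophage genes called higher numbered 0, 0 and 0 without allograft tumor 1, 2 or 3 and 15, 0 and 0 without primary tumor 1, 2 or 3, and 1 after TPM rescaling. Their summed level was 3262, 515 and 685 FPKM in primary and 7234, 4110.0 and 1909.7 in allograft tumors, so primary tumor 1 lay within the allograft range. Arg1, an arginase of alternatively activated macrophages, stood at 8.88, 0.314 and 0.418 FPKM against 43.5, 82.4 and 36.0 FPKM (4.29 ± 0.83, adjusted p = 0.0249). C1qa stood at 411, 55.4 and 55.1 FPKM against 1708, 913 and 408 FPKM, with overlap, and did not pass (2.98 ± 0.92, adjusted p = 0.0697). Without primary tumors 2 and 3 the list's median was -0.02.

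Few genes of antigen presentation and of the interferon response passed. Of all genes, 8.61% passed higher and 9.13% lower. Of 10 class II genes 2 fell, both of them the B cell associated H2-Oa (-1.39 ± 0.33, adjusted p = 0.0383) and H2-Ob (-1.54 ± 0.33, adjusted p = 0.0298). Both calls were lost after quantile normalization. Of 15 class I genes 3 fell, which were H2-T22, H2-T23 and H2-Q7. These are families of near-identical genes that differ between strains. Of 27 interferon response genes 2 fell, Rsad2 (-1.51 ± 0.32, adjusted p = 0.0297) and Cxcl9 (-0.95 ± 0.25, adjusted p = 0.0458, lost under TPM, median-of-ratios and quantile scaling and without the 50 most abundant genes), and 0 rose. Of 9 tested genes of immune checkpoints 2 rose and 1 fell, beside 8.61% and 9.13% of all genes. Havcr2 and Lag3 rose by 1.76 and 1.04, and both calls were lost after TPM rescaling and without the 50 most abundant genes. The gene that fell was Nt5e (-1.50), named above among the YAP targets. Checkpoint genes called higher numbered 0, 0 and 0 without allograft tumor 1, 2 or 3 and 4, 0 and 0 without primary tumor 1, 2 or 3.

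**Figure D5:**
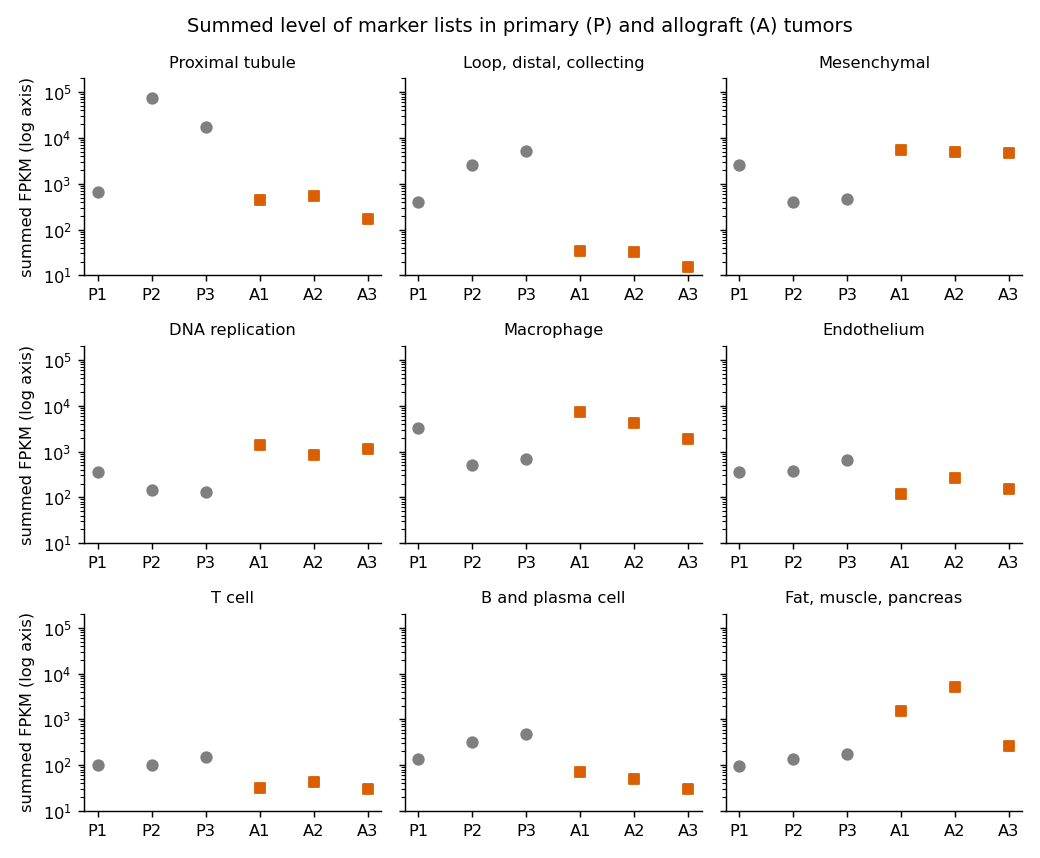
Summed FPKM (y axis, log scale) of the genes of 9 lists in primary tumors (P1 to P3, circles) and allograft tumors (A1 to A3, squares). P2 and P3 stand far above P1 and the allograft tumors for proximal tubule genes, all 3 allograft tumors lie under all 3 primary tumors for T cell and for B and plasma cell genes, and A1 and A2 stand highest for genes of fat, muscle and pancreas.

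Transcripts of marker genes of fat, muscle and pancreas were also measured in allograft tumors. Cfd, secreted by fat cells, rose from 0, 0.190 and 0.253 FPKM in primary to 401, 1557 and 63.8 in allograft tumors (8.23 ± 1.07, adjusted p = 0.0131). Adipoq, the fat hormone adiponectin, rose from 0.0548, 0.130 and 0.116 to 79.5, 218 and 13.7 FPKM (5.86 ± 0.92, adjusted p = 0.0180). Acta1, the skeletal muscle actin, stood at 267, 227 and 1.00 FPKM in allograft tumors 1 to 3 and at 0.525, 0.208 and 0.417 in primary tumors. The pancreatic trypsinogen gene Prss2 stood at 0.184, 606 and 0.267 FPKM in allograft tumors, so in allograft tumor 2 alone at a high level. Transcripts of these fat genes were thus raised in all 3 allograft tumors, that of the muscle gene in 2 and that of the pancreas gene in 1. In a list of complement and acute phase genes, 3 of 17 tested rose and 1 fell, with a median of 0.29. The shares of all genes were 8.61% and 9.13%. Hp and Saa3 are acute phase genes that fat also expresses. Hp rose from 4.03, 0.819 and 0.832 to 308, 1247 and 74.7 FPKM (6.91 ± 1.02, adjusted p = 0.0160), and Saa3 from 1.53, 1.36 and 1.01 to 79.2, 204 and 40.5 FPKM (5.26 ± 0.56, adjusted p = 0.00923). The metastases, with Cfd at 2.33, 0.255 and 0.181 FPKM, held 229.9, 329 and 342 FPKM of Hp. The source of these transcripts, and the part of such tissues in the other results, were not tested. Without allograft tumors 1 and 2, both of which hold muscle transcripts, 34 genes of all passed (32 higher and 2 lower), with a lone allograft library that is assumed to vary like the primary tumors.

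Sex-linked genes differed within and between the groups. Xist, which silences an X chromosome in females, stood at 163, 0.323 and 0.374 FPKM in primary and 63.7, 48.9 and 127 in allograft tumors, and the Y-linked Ddx3y at 0.112, 30.0 and 20.5 FPKM against 22.5, 22.8 and 8.94 FPKM. Primary tumor 1 thus showed Xist without Ddx3y, primary tumors 2 and 3 showed Ddx3y without Xist, and each allograft tumor showed both. Neither gene was called (adjusted p = 0.225 and adjusted p = 0.612). Sex and tubule transcript content cannot be told apart among the primary tumors, since the 2 tumors with a Y-linked signal were the 2 rich in tubule transcripts.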

How the data were processed

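RNA-seq was measured in 12 mouse libraries, of which 6 entered the comparison and the 3 lung metastases were used beside it. The deposited table holds FPKM per gene as the authors made it. The submitters' processing notes name bcl2fastq 2.17.1.14, Salmon, GRCm38 and mm10, without a version of Salmon. Library kind, strandedness and run dates were not given there or in the labels. Low non-zero values put the depth at roughly 14500000 to 15800000 fragments in the primary tumors and 11000000 to 17400000 in the allograft tumors, an estimate and not a count. FPKM are not counts, so no count test was run.

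The filter required 1 FPKM in 3 libraries of the 12. log2(FPKM + 1) values, computed here from the deposited FPKM, were fitted in R 4.3.3 with limma 3.58.1 (lmFit and eBayes with trend), allograft against primary, with a threshold of 0.05 on Benjamini-Hochberg adjusted p. Allograft against metastasis was fitted in the same way and shares the allograft libraries. Fits were tested on simulated data. Genes were named by a rule: anchor genes of the design, the 15 largest called rises and falls without overlap whose higher group averaged 10 FPKM or more, and, in each list, the 3 called members that moved farthest in the main direction, 1 in the opposite direction and the member of highest level. Predicted genes, pseudogenes, small RNAs and receptor segments were left out of the second. Named outside it, after their values had been seen, were Acta1, Asns, Atf4, Atp6v0c-ps2, Atp6v1b1, Atp6v1g3, Bax, Bmp4, Ccnb1, Ccnb2, Ccne1, Ccne2, Cd8b1, Cdc6, Cdt1, Cep85, Ces1g, Cldn7, Cubn, Emcn, Erbb3, Esrp1, Esrp2, Foxi1, Foxm1, Hif1a, Hmga2, Hoxb7, Igha, Kif11, Krt18, Krt8, Mdm2, Mthfd2, Muc1, Mybl1, Nkg7, Pdgfa, Pfkl, Pgam1, Pgk1, Plk1, Prim1, Prss2, Psat1, Rnaset2b, Rnd3, Slc12a3, Tead1, Tead3, Tead4, Twist1, Upk1a, Upk2, Upk3a, Wnt10a and Zeb1. The members and lists were chosen with earlier results of these data known. Alternatives changed the pseudocount, filter, scaling, samples and model, and each library was left out in turn. Some genes are not reported here.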

Additional observations from a re-analysis of the deposited data

How the results depend on the processing

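Of the 16313 genes tested, 2893 were called, 1404 higher and 1489 lower. With 1 library left out the count ran from 109 to 4741 in all, from 56 to 2174 higher and from 53 to 2567 lower. TPM rescaling gave 1754 calls (530 higher), and leaving out the 50 most abundant genes gave 683 higher, so that the share of calls that were higher was 30.2% and 28.0% against 48.5%, and 57.5% after quantile normalization. Array weights gave 8780 calls (4381 higher, 4399 lower), the fit of all 4 groups 6784 (3345 and 3439), and a 2-fold minimum 118 (41 and 77). Without primary tumors 2 and 3 the count was 422 (35 and 387), from a lone primary library assumed to vary like the allograft tumors, so that nothing rests on it. Without allograft tumors 1 and 2, an alternative chosen after seeing the data, it was 34 (32 and 2), with a lone allograft library. Distinct list members called numbered 223, from 10 to 360 with 1 library left out, and 462, 387, 22, 38 and 4 under array weights, all 4 groups, the 2-fold minimum and these last settings. The cause was not tested.

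Most calls of single genes did not hold when 1 library was left out. Of 126 genes named here and called, 12 kept their call in all 6 such fits and 17 in 5. A further 10 kept it in 4, 17 in 3, 21 in 2, 47 in 1 and 2 in 0. Without allograft tumor 1, 113 of the 126 lost their call. No gene named here and called changed its direction under any of the alternatives. Of those not called, Wwtr1 turned to -0.29 with TPM, -0.0661 with quantile normalization, -0.27 without the 50 most abundant genes, -0.0056 with protein-coding genes under median-of-ratios scaling, -0.14 without primary tumors 2 and 3, -0.21 without allograft tumors 1 and 2, and ran from -0.096 to 0.12 with 1 library left out. Ncr1 turned to 0.0048 with a pseudocount of 5, 0.36 with quantile normalization and 0.36 with array weights, and ran from -0.31 to 0.17 with 1 library left out. Tead1 turned to 0.24 without allograft tumors 1 and 2, and ran from -0.37 to 0.0661 with 1 library left out. Without primary tumors 2 and 3, Twist1 turned to -0.0799 and Xist to -1.14, and Ddx3y ran from -0.54 (without primary tumor 1) to 1.86 with 1 library left out.

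The labels do not say whether equal replicate numbers of the 2 groups pair the samples, and the main fit used no pairing. Deviations from the group means correlated at 0.0977, 0.0442 and 0.0952 for equal numbers. Allograft tumor 2 correlated best with primary tumor 3 (0.13). With 3 libraries a group, these values cannot decide whether samples were paired. With a replicate block 1948 genes were called, 941 higher and 1007 lower. FPKM near the level of 1 fragment carry large counting error, and 3 libraries a group limit the precision.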

Other observations

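Some genes stood out in single values. Other than Atp6v0c they were named after their values had been seen. Atp6v0c, a proton pump subunit, stood at 148, 351 and 171 FPKM in primary and 0.294, 0.816 and 6.58 in allograft tumors, while its copy Atp6v0c-ps2 stood at 0.315, 1.05 and 0.665 FPKM against 64.7, 113 and 186 FPKM. Over 387 aligned bases the 2 transcripts match at 386, so fragments may be placed on either, and the summed level was 148, 352 and 171 FPKM in primary and 65.0, 114 and 193 FPKM in allograft tumors. Rnaset2b, which has a near copy, stood at 27.2, 61.3 and 51.2 FPKM in primary and 0.0882, 0.0408 and 0.231 in allograft tumors. Ces1g, a carboxylesterase gene, stood at 0.211, 1.29 and 0.559 FPKM against 36.5, 16.2 and 23.7 FPKM, and Cep85, a centrosomal gene, at 14.3, 22.1 and 29.1 FPKM against 302, 313 and 314 FPKM. The 3 latter genes were called in each of the 6 fits without 1 library.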
